A study of Bos indicus with 5 samples.

Results

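The insulin-like growth factor (IGF) family was examined in Nelore cows, in the oviduct ampulla (the broad segment between the ovarian end and the isthmus). The members were the ligand IGF2, the receptors IGF1R and IGF2R and the binding proteins IGFBP2 to IGFBP7. They were chosen by gene symbol, with earlier results of these data known, and made up 9 of the 24616 genes in the deposited ampulla table. A total of 8 members carried the exact symbol. IGF1R is listed in the table as IGFR1, under the gene identifier ENSBTAG00000021527, and was taken from that row.

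IGF1 and IGF2 are small secreted peptides that act on cell growth, survival and metabolism. Both bind the tyrosine kinase receptor IGF1R, which signals through insulin receptor substrate proteins to the PI3K and AKT kinases and through RAS to the MAP kinases. IGF2R, which is also the cation-independent mannose 6-phosphate receptor, carries IGF2 into the cell for degradation in lysosomes and sorts lysosomal enzymes. The IGFBPs are secreted proteins that hold IGFs in the extracellular space, prolong their life and limit or assist their access to the receptor, and proteases release the IGFs by cleaving them. In the oviduct, IGFs are made by the tissue and are present in the fluid that surrounds the early embryo.

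The multiparous cows all received an intravaginal progesterone device holding 1 g and an injection of 2 mg estradiol benzoate on day -10, an injection of prostaglandin F2-alpha when the device was taken out and another 6 h later, and GnRH to induce ovulation. LF/LCL stands for a large follicle with a large corpus luteum, and here the device came out 42 h before GnRH, and a further dose of prostaglandin had been given on day -10. SF/SCL stands for a small follicle with a small corpus luteum, and here the device came out 30 h before GnRH. The ampulla on the side of the corpus luteum was taken on day 4, with the full thickness of its wall, and 2 LF/LCL and 3 SF/SCL libraries were analysed, each from a different cow. The sequenced cows were those ranked at opposite ends of the animals treated, so the groups represent extremes of the response, and the study discarded another LF/LCL library for its quality.

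The libraries held between 13418278 and 19592174 reads counted in genes, and the family members held between 382 and 7326 reads each in every library. Values are given as normalized reads, which are the reads of a gene divided by the size factor of the library. A log2 fold change is LF/LCL over SF/SCL on the log2(value + 1) scale with its standard error (SE), and p-values are from limma over the 15815 genes with a mean value over 5, unless another tool is named. The oviduct markers OVGP1, the secretory glycoprotein (117179 to 147247 normalized reads), and FOXJ1, the regulator of motile cilia (8481 to 12698), were abundant in every library. The libraries differed in smooth muscle markers, whose summed value was 126702 and 65504 in the LF/LCL libraries, against 40882, 43586 and 17523 in those of SF/SCL. LF/LCL replicate 1 and SF/SCL replicate 3 were at the ends of that range. Both recur below, since every member other than the receptors was highest in either of these libraries. Because whole tissue was sequenced, fewer cells of a type and less RNA per cell cannot be told apart.

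In limma, 0 of the 9 members passed an adjusted p under 0.05 between LF/LCL and SF/SCL, and the share of all genes tested that passed was 0%. The smallest adjusted p of any gene was 0.178 and that of a member was 0.338. At an unadjusted p under 0.05, limma picked out 2 members, IGFBP2, which was lower in LF/LCL, and IGFBP4, which was higher, beside 11.5% of all genes tested. Fitted values were higher in LF/LCL for 5 members and lower for 4. The median log2 fold change of the members was 0.03, against 0.01 over all genes, and their median absolute log2 fold change was 0.26, against 0.21. The groups did not overlap in 1 member, IGFBP2, and overlapped in 8, whereas 30.1% of all genes tested had groups that did not overlap.

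**Figure D1:**
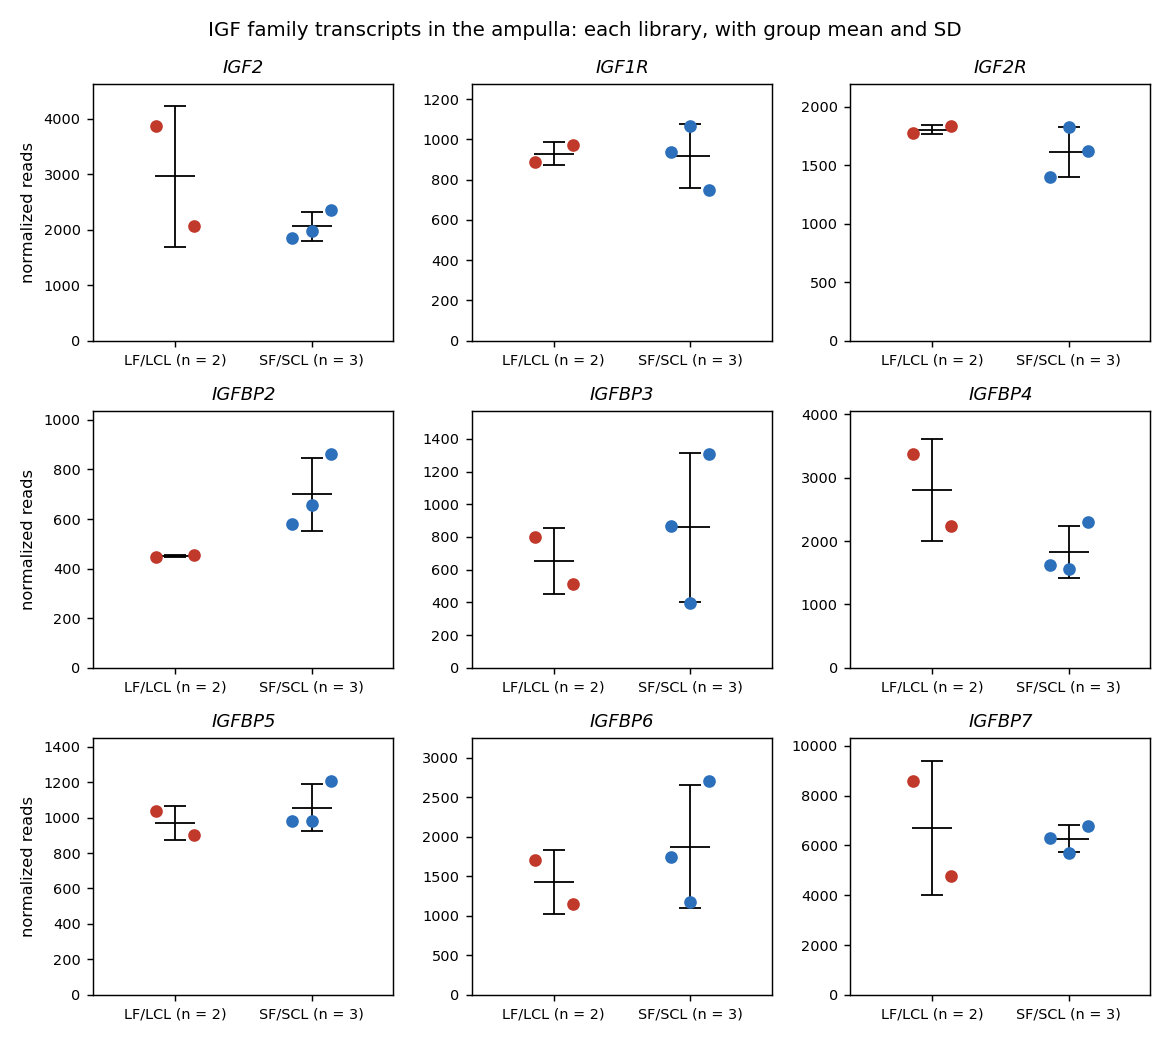
Normalized reads of the 9 family members (y axes, from 0) in each LF/LCL library (red, n = 2) and SF/SCL library (blue, n = 3), in replicate order from left to right, with the group mean (horizontal line) and SD (bars). The groups separate for IGFBP2 alone, where both LF/LCL libraries lie under the lowest SF/SCL library at 579 normalized reads.

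Count tests on the recovered reads also called no member. DESeq2 called 0 members and 2.89% of all genes, and 2 members and 12.7% of all genes had an unadjusted p under 0.05. The edgeR exact test called 0 members and 2.12% of all genes, with 2 members and 11.01% of all genes before adjustment. The edgeR quasi-likelihood test called 0 members and 0% of all genes, with 2 members and 11.6% of all genes before adjustment. In limma the unadjusted count was 0 without LF/LCL replicate 1 (7.80% of all genes) and 3 without LF/LCL replicate 2 (9.87% of all genes). It was 1 when SF/SCL replicate 1 or SF/SCL replicate 2 was left out (10.1% and 10.5% of all genes).

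The ligand IGF2, an imprinted growth factor expressed from the paternal allele in most tissues, was measured at 3863 and 2061 normalized reads in LF/LCL replicates 1 and 2. In SF/SCL replicates 1, 2 and 3 it was at 1853, 1976 and 2359.9. LF/LCL replicate 1 stood above all other libraries, while replicate 2 lay inside the SF/SCL range, so that the groups overlapped. The means were 2962 ± 1274 (SD, n = 2) for LF/LCL libraries and 2063 ± 265 (SD, n = 3) for SF/SCL libraries. Fitted, IGF2 differed by 0.46 ± 0.27 (SE) on the log2 scale, with a limma adjusted p of 0.578 and a 95% interval of -0.21 to 1.13. It rested on LF/LCL replicate 1, as the fold change was 0.01 without that library and 0.91 without LF/LCL replicate 2. Without LF/LCL replicate 2 the unadjusted limma p was 0.0035, and the adjusted p of IGF2 was no lower than 0.285 in any of the 14 alternatives run.

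IGF1, the other ligand, is not among the 9 members and is listed in the table as IGF-I (ENSBTAG00000011082). It was measured at 228 and 103 normalized reads in the LF/LCL libraries, against 104, 75.4 and 96.6 in those of SF/SCL. LF/LCL replicate 1 was again the highest library and replicate 2 was just under the highest SF/SCL library. Its log2 fold change was 0.74 ± 0.39 (limma adjusted p = 0.527). It was 0.17 without LF/LCL replicate 1 and 1.31 without LF/LCL replicate 2, so both ligands moved in the same way when either LF/LCL library was left out. INS, which encodes insulin and is the next gene to IGF2 in the RefSeq annotation of another cattle assembly (NIAB-ARS_B.indTharparkar), had 0 reads in every library. A floor of 3 reads, for counting error only, allows it up to 0.153 to 0.224 CPM (reads scaled to the library total), depending on the library. MRPL23, a mitochondrial ribosomal protein gene on the other side of IGF2 in that annotation, had 45.1 to 52.0 normalized reads, with a log2 fold change of -0.02 ± 0.31.

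Both receptors were among the more even members across libraries. IGF1R, the signalling receptor for both ligands, was measured at 888 and 971 normalized reads in the LF/LCL libraries, against 939.9, 1065 and 748 in those of SF/SCL. Its LF/LCL libraries lay within the SF/SCL range. The means were 929 ± 58.7 (SD, n = 2) and 918 ± 159.5 (SD, n = 3), and the log2 fold change was 0.03 ± 0.17 (limma adjusted p = 0.966). The 95% interval of that difference ran from -0.38 to 0.44. Its direction was not set, since the log2 fold change was -0.03 without LF/LCL replicate 2, -0.11 when SF/SCL replicate 3 was left out and 0.15 when SF/SCL replicate 2 was.

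IGF2R, the receptor that clears IGF2, was measured at 1778 and 1833 normalized reads in the LF/LCL libraries, against 1398, 1826 and 1625 in those of SF/SCL. The LF/LCL libraries were close to each other, and SF/SCL replicate 2 lay between them. The means were 1806 ± 39.1 (SD, n = 2) and 1617 ± 214 (SD, n = 3). This is a log2 fold change of 0.17 ± 0.13, with a 95% interval of -0.16 to 0.50 and a limma adjusted p of 0.690. It stayed positive in all 14 alternatives, from 0.07 to 0.26.

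Among the binding proteins, 4 of 6 had fitted values lower in LF/LCL and 2 were higher. IGFBP2, which binds IGF2 with high affinity, was measured at 448 and 454 normalized reads in the LF/LCL libraries, against 579, 658 and 864 in those of SF/SCL. Both LF/LCL libraries were below every SF/SCL library, a separation in this direction that 15.1% of all genes tested had. The means were 451 ± 4.21 (SD, n = 2) and 700.4 ± 147 (SD, n = 3). The log2 fold change was -0.61 ± 0.19, with a 95% interval of -1.07 to -0.16, and 16.6% of genes tested had a larger absolute fold change. The unadjusted limma p was 0.0165 and the adjusted p was 0.338. DESeq2 gave an adjusted p of 0.138, the lowest among the alternatives, which ran up to 0.660. The log2 fold change stayed between -0.74 and -0.45 under every alternative run. It is the member whose fold change moved least for its size when single libraries were left out, and its unadjusted p was 0.0646 without LF/LCL replicate 1 and 0.0596 without LF/LCL replicate 2 in limma.

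IGFBP4, a binding protein that restrains IGF action until it is cleaved by pappalysin, was measured at 3381 and 2241 normalized reads in LF/LCL. It was at 1627, 1561 and 2307 in SF/SCL. LF/LCL replicate 1 was the highest library, and SF/SCL replicate 3 was just above LF/LCL replicate 2, so the groups overlapped. The means were 2811 ± 806 (SD, n = 2) and 1832 ± 413 (SD, n = 3). Fitted, IGFBP4 had a log2 fold change of 0.61 ± 0.24, with a 95% interval of 0.01 to 1.21. The unadjusted limma p was 0.0467 and the adjusted p was 0.426, and adjusted p-values over the alternatives ran from 0.262 to 0.801. The fold change was 0.31 without LF/LCL replicate 1 and 0.91 without LF/LCL replicate 2. The unadjusted limma p was above 0.05 without LF/LCL replicate 1 (0.273), SF/SCL replicate 1 (0.119) or SF/SCL replicate 2 (0.120).

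IGFBP3, the main carrier of IGFs in the circulation, had the widest range of any member. It was measured at 797 and 512 normalized reads in the LF/LCL libraries, against 869, 396 and 1310.4 in those of SF/SCL. The highest SF/SCL library was 3.31 times the lowest, and both LF/LCL libraries lay between them. The means were 655 ± 202 (SD, n = 2) and 858 ± 457 (SD, n = 3), and the log2 fold change was -0.26 ± 0.51 (limma adjusted p = 0.892). The 95% interval of -1.53 to 1.01 was the widest of the family. The direction turned to 0.06 without LF/LCL replicate 2 and to 0.12 without SF/SCL replicate 3, and the value was -0.74 without SF/SCL replicate 2.

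IGFBP6, which prefers IGF2 over IGF1, followed the same order of libraries within each group as IGFBP3. It was measured at 1709.9 and 1143 normalized reads in the LF/LCL libraries, against 1747, 1172 and 2708 in those of SF/SCL. SF/SCL replicate 3 was the highest library, and LF/LCL replicate 2 and SF/SCL replicate 2 were the lowest. The means were 1427 ± 401 (SD, n = 2) and 1875 ± 776 (SD, n = 3), and the log2 fold change was -0.34 ± 0.37 (limma adjusted p = 0.782). It was -0.63 without LF/LCL replicate 1, -0.64 without SF/SCL replicate 2, -0.05 without LF/LCL replicate 2 and -0.03 without SF/SCL replicate 3.

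IGFBP5, a binding protein that attaches to extracellular matrix, was the most even of the binding proteins. It was measured at 1037 and 902 normalized reads in the LF/LCL libraries, against 978, 979 and 1207 in those of SF/SCL. The groups overlapped, with LF/LCL replicate 2 the lowest library and SF/SCL replicate 3 the highest. The means were 969 ± 95.2 (SD, n = 2) and 1055 ± 132 (SD, n = 3), and the log2 fold change was -0.12 ± 0.14, with a 95% interval of -0.46 to 0.23 and a limma adjusted p of 0.804. IGFBP5 is the neighbour of IGFBP2 in the RefSeq annotation, and beside the -0.61 of IGFBP2 its log2 fold change was -0.12. RPL37A, a ribosomal protein gene on the other side of IGFBP2, had a log2 fold change of -0.02 ± 0.10. Not all neighbours of members were this even. Beside IGFBP4, TOP2A was at 1.54 ± 0.50 (limma adjusted p = 0.359), with groups that did not overlap, and TNS4 was at 0.12 ± 0.35. SYNM, beside IGF1R, was at 1.01 ± 0.50 (limma adjusted p = 0.502).

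IGFBP7, a secreted protein related to the IGFBPs that binds IGFs with low affinity, was measured at 8592 and 4788 normalized reads in the LF/LCL libraries, against 6312, 5689.6 and 6778 in those of SF/SCL. The LF/LCL libraries were the highest and the lowest of all, on either side of the SF/SCL range. The means were 6690.0 ± 2689 (SD, n = 2) and 6259.9 ± 546 (SD, n = 3), and the log2 fold change was 0.04 ± 0.25 (limma adjusted p = 0.973). It was -0.38 without LF/LCL replicate 1, 0.46 without LF/LCL replicate 2 and -0.03 without SF/SCL replicate 2, so its sign was set by single libraries.

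**Figure D2:**
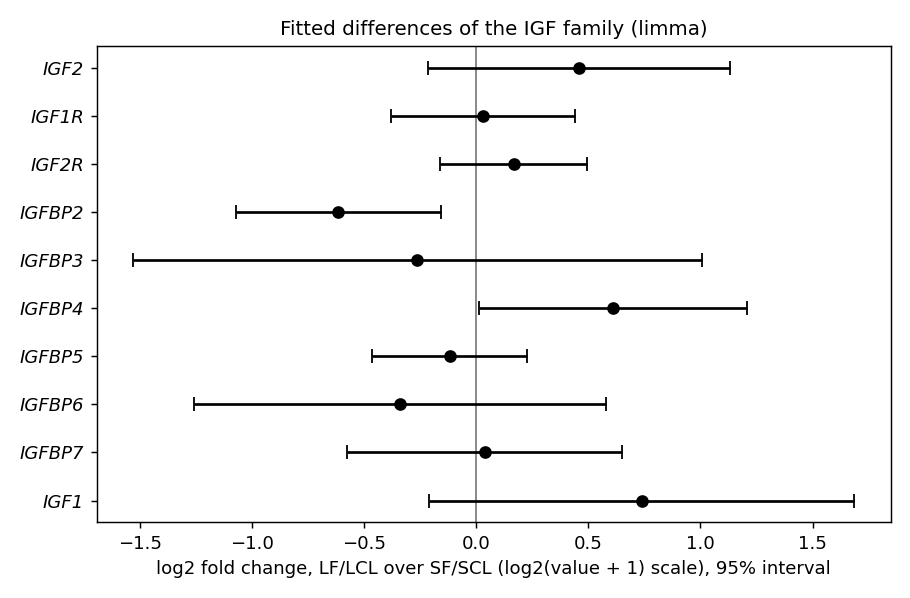
Fitted log2 fold change (x axis, LF/LCL over SF/SCL, points) of the 9 members and IGF1 with 95% limma intervals (bars). The intervals of IGFBP2 (-1.07 to -0.16) and IGFBP4 (0.01 to 1.21) do not reach 0 before adjustment, and that of IGFBP3 (-1.53 to 1.01) is the widest among the members.

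Apart from the receptors, the members were highest in either LF/LCL replicate 1 or SF/SCL replicate 3. IGF2, IGFBP4 and IGFBP7 were highest in LF/LCL replicate 1 (3 members), and IGFBP2, IGFBP3, IGFBP5 and IGFBP6 were highest in SF/SCL replicate 3 (4 members). The receptors were highest in SF/SCL replicate 2 (IGF1R) and LF/LCL replicate 2 (IGF2R). LF/LCL replicate 1 exceeded LF/LCL replicate 2 in 6 of the 9 members. Libraries of the same group differed, with LF/LCL libraries 1.87-fold apart in IGF2 and 1.79-fold in IGFBP7, and SF/SCL libraries 2.31-fold apart in IGFBP6. LF/LCL libraries differed least in IGFBP2 (1.01-fold) and IGF2R (1.03-fold).

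**Figure D3:**
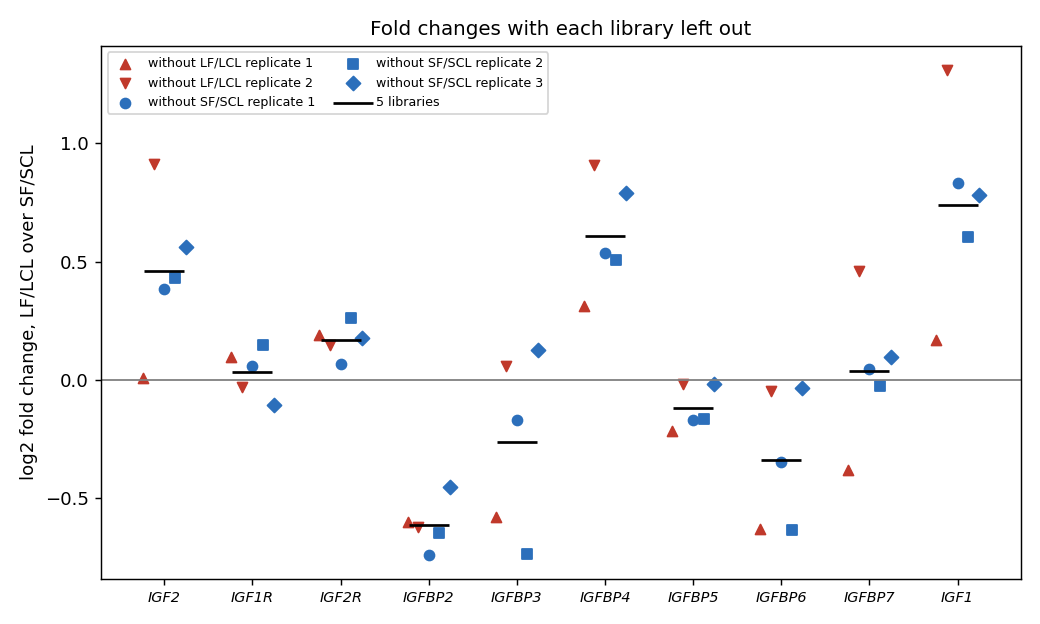
Log2 fold change (y axis, LF/LCL over SF/SCL) of each family member and IGF1 with all 5 libraries (black bars) and with each library left out in turn (red, an LF/LCL library; blue, an SF/SCL library). IGFBP2 (nearest to 0 at -0.45), IGFBP5 (-0.02) and IGFBP6 (-0.03) stay under 0 throughout. IGFBP4, IGF2R, IGF2 and IGF1 stay over 0, with IGF2 at 0.01 without LF/LCL replicate 1. IGF1R, IGFBP3 and IGFBP7 lie on both sides of 0.

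Ratios of members within a library do not depend on the size factor of that library. They compare libraries and not genes, since reads were not divided by transcript length. The log2 ratio of IGF2 to its clearance receptor IGF2R was 1.1196 and 0.17 in the LF/LCL libraries, against 0.41, 0.11 and 0.54 in those of SF/SCL, and the groups overlapped. The difference of the group means was 0.29, and it was -0.18 without LF/LCL replicate 1 and 0.77 without LF/LCL replicate 2. The log2 ratio of IGF2 to IGF1R was 2.12 and 1.09 in the LF/LCL libraries, against 0.98, 0.89 and 1.66 in those of SF/SCL, which also overlapped.

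The summed reads of the 6 IGFBPs were 15965 and 10040.3 in the LF/LCL libraries, against 12112, 10455 and 15175 in those of SF/SCL. The highest and the lowest sums were both in LF/LCL. IGFBP7, which binds IGFs with low affinity, was the largest part of the sum in every library, at 8592 of 15965 in LF/LCL replicate 1. The log2 ratio of IGF2 to that sum was -2.05 and -2.28 in the LF/LCL libraries, against -2.71, -2.40 and -2.68 in those of SF/SCL. Here both LF/LCL libraries were above every SF/SCL library, with a difference of the means of 0.43. This ratio was 1 of 4 described, and none of them was tested. The log2 ratio of IGFBP3 to IGFBP5 was -0.38 and -0.82 in the LF/LCL libraries, against -0.17, -1.31 and 0.12 in those of SF/SCL, with the largest spread inside SF/SCL.

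Markers of the cell types in the wall differed between the libraries, and their levels are given beside the family. Smooth muscle markers were fitted higher in LF/LCL in 11 of 11 genes found of the 13 listed, with 9 at an unadjusted limma p under 0.05 and a median log2 fold change of 1.47. Ciliated epithelium markers were fitted lower in 14 of 14 genes, with 10 at an unadjusted p under 0.05 and a median of -0.47, and their summed value was 52654 and 67958 in LF/LCL against 80947 to 81688 in SF/SCL. IGFBP2 and the ciliated markers were thus both lower in LF/LCL. Within SF/SCL they did not follow the same order, as IGFBP2 was highest in replicate 3, while 7 of the 14 ciliated markers, FOXJ1 among them, were lowest there and 4 were highest. The part of the ciliated markers in the IGFBP2 values was not tested. IGF2, IGFBP4, IGFBP7 and IGF1 were highest in LF/LCL replicate 1, the library with the highest sums of smooth muscle, stromal fibroblast and proliferation markers. Within SF/SCL, IGF2, IGFBP4 and IGFBP7 were highest in replicate 3, and IGF1 was highest in replicate 1. Replicate 3 had the lowest smooth muscle sum of all libraries (17523) and the highest stromal fibroblast sum within SF/SCL (59198). Its proliferation sum was 1632, against 1633 and 1717 in SF/SCL replicates 1 and 2, with PCNA the largest part (939 in replicate 3). By the mean of log2(value + 1) over that list, replicate 3 was the lowest of all libraries. It lay at -0.87 from the mean over the 5 libraries, against -0.29 and -0.02 in SF/SCL replicates 1 and 2. The part of these cell types in those values was not tested.

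Stromal fibroblast markers were fitted higher in LF/LCL in 12 of 14 genes and lower in 2, with 0 at an unadjusted limma p under 0.05 (0 adjusted). Their summed value was 98032 and 42259 in the LF/LCL libraries, against 47978, 27281 and 59198 in those of SF/SCL. Within each group the order of libraries was the same as for IGFBP3, IGFBP4, IGFBP6 and IGFBP7. SF/SCL replicate 2 was the lowest library for IGFBP3, for IGFBP4 and for these markers. Endothelium markers summed to 8165 and 5132 in the LF/LCL libraries, against 6644, 6107 and 8949 in those of SF/SCL, with the same order within each group. The part of either cell type in the IGFBP3, IGFBP4, IGFBP6 and IGFBP7 values was not tested. Endothelium markers were fitted higher in LF/LCL in 5 of 9 genes and lower in 4. Only 1 had an unadjusted limma p under 0.05, KDR, which was lower in LF/LCL, at a log2 fold change of -0.75. Secretory epithelium markers summed to 150809 to 178776, most of it OVGP1. They were fitted higher in 5 of 8 genes, and 3 of these (PAX8, KRT7 and EPCAM, at log2 fold changes of 0.62, 0.45 and 0.40) had an unadjusted limma p under 0.05 and groups that did not overlap. Immune markers were fitted higher in LF/LCL in 9 of 11 genes (5 at an unadjusted limma p under 0.05), with sums of 2825 and 3668 in the LF/LCL libraries, against 3086, 1671 and 3039 in those of SF/SCL. Proliferation markers were fitted higher in 10 of 10 genes (4 at an unadjusted p under 0.05). Their sums were 2480 and 1943 in LF/LCL and 1632 to 1717 in SF/SCL, with PCNA the largest part in every library. Mesothelium markers were fitted higher in 2 of the 4 genes tested and lower in 2, with 0 at an unadjusted limma p under 0.05. Their sum, most of it MSLN, was lowest in LF/LCL replicate 1, at 2527, and was 8504 to 13425 in the other libraries. By the mean of log2(value + 1) over the list, LF/LCL replicate 1 (-0.76) and SF/SCL replicate 2 (-0.57) were both under the mean of the 5 libraries. Blood markers summed to 16.1 to 507, with ALAS2 at 0 in every library.

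**Figure D4:**
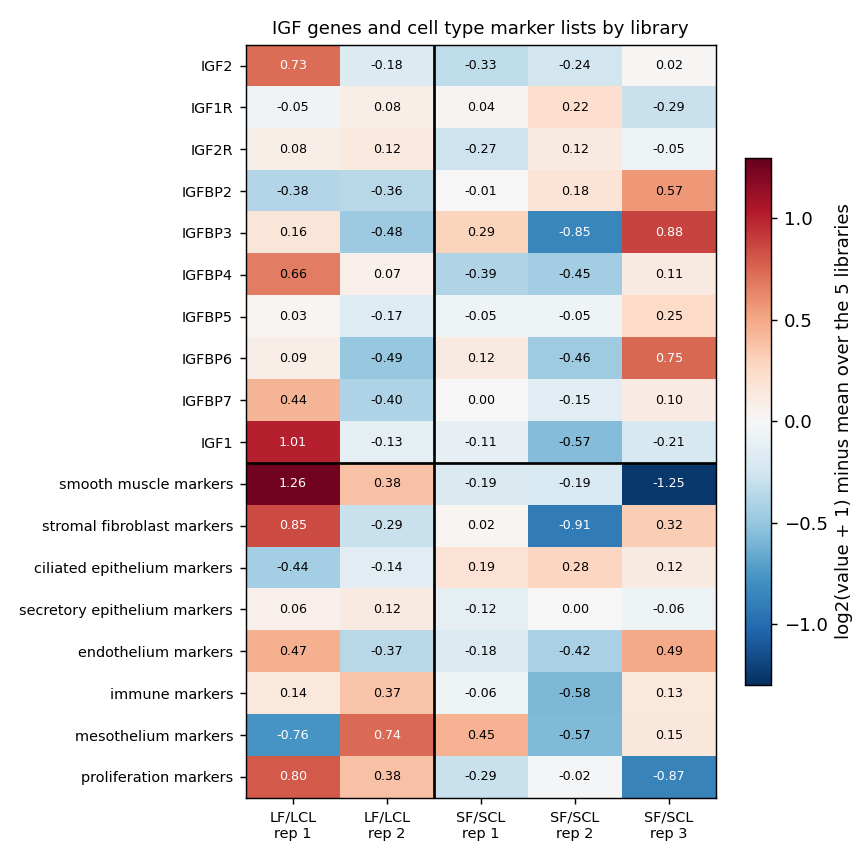
Log2(value + 1) in each library minus the mean over the 5 libraries (colour and number in each cell), for the family members and IGF1 (top) and for the mean of each marker list (bottom), with LF/LCL libraries left of the vertical line. IGFBP3 (0.16, -0.48, 0.29, -0.85, 0.88 from left to right) and the stromal fibroblast markers (0.85, -0.29, 0.02, -0.91, 0.32) share their lowest library, and IGFBP2 is under its mean in both LF/LCL libraries (-0.38 and -0.36).

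The genes whose profiles over the 5 libraries were most like those of IGFBP2 and IGFBP3 were found by the root mean square (RMS) difference of centred log2(value + 1) values among 11951 genes with a symbol and a mean of at least 50. For IGFBP2 they were DNAH5, a heavy chain of the dynein arms of motile cilia (RMS 0.0584), SIAT4B, a sialyltransferase gene (0.0591), and CXorf30 (0.0603), against a median RMS of 0.396 over all candidates. DNAH5 was measured at 7049.5 and 6607 normalized reads in the LF/LCL libraries, against 8173, 9925 and 12257 in those of SF/SCL. It is also 1 of the 14 ciliated epithelium markers. In SF/SCL replicate 3, where IGFBP2 was highest (0.57), the mean of that list was 0.12 over its own mean. It was 0.19 and 0.28 over in SF/SCL replicates 1 and 2. The markers ARMC3, CCDC39 and CCDC40 were, like DNAH5, highest within SF/SCL in replicate 3, and 7 of the 14 were lowest there. For IGFBP3 they were TGFB3, a transforming growth factor ligand (RMS 0.109), ABCC5, a transporter (0.112), and ACVRL1, a receptor of the TGF-beta family found on endothelium (0.120), against a median of 0.635. No test was made of these likenesses, which rest on 5 libraries.

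Other genes of the IGF system were taken from lists that matched 114 entries (gene identifiers), of which 102 were tested. Some genes, RPS6 and GSK3B among them, had another entry, and each entry was counted. Fitted values were higher in LF/LCL for 50 and lower for 52. At an unadjusted limma p under 0.05 there were 4 higher and 2 lower, which is 5.88% against 11.5% of all genes, and 0 passed adjustment. The groups did not overlap in 24.5% of them, against 30.1% of all genes. DESeq2 called 1 of them, PEG10.

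Among the other ligands, receptors and carriers, 3 of 6 were abundant enough to be tested. INSRR, an orphan receptor of the insulin receptor family, was measured at 9.38 and 21.3 normalized reads in the LF/LCL libraries, against 29.1, 22.5 and 37.6 in those of SF/SCL. IGFALS, the acid-labile subunit that stabilises circulating IGF complexes, was at 14.1 and 22.3 in the LF/LCL libraries, against 1.04, 9.33 and 11.8 in those of SF/SCL. Neither group pair overlapped, but the reads were few, and the log2 fold changes were -0.99 ± 0.53 (limma adjusted p = 0.533) for INSRR and 1.54 ± 0.94 (limma adjusted p = 0.586) for IGFALS. IGFBP1, the neighbour of IGFBP3 in the RefSeq annotation, was near 0 with at most 5.37 normalized reads, and IGFBPL1 had at most 3.11. The insulin receptor INSR was not analysed here.

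The genes for proteases that cleave IGFBPs and their inhibitors had 7 of 9 tested genes fitted higher in LF/LCL and 2 lower, with 0 at an unadjusted limma p under 0.05 (0 adjusted) and 0 whose groups did not overlap. ADAMTS1, a matrix protease, was measured at 2139 and 1001 normalized reads in the LF/LCL libraries, against 852, 715 and 1139 in those of SF/SCL. As with IGF2 and IGFBP4, LF/LCL replicate 1 was the high library and replicate 2 lay in the SF/SCL range, and the log2 fold change was 0.72 ± 0.36 (limma adjusted p = 0.506). PRSS23, a serine protease, had the largest difference in the other direction, at -0.71 ± 0.37 (limma adjusted p = 0.527), and HTRA1, a secreted serine protease, was at -0.39 ± 0.33. PAPPA, the pappalysin that cleaves IGFBP4, had too few reads to be tested, at 0.777 to 6.24 normalized reads. PAPPA2, which cleaves IGFBP3 and IGFBP5, was measured at 117 and 154 in the LF/LCL libraries, against 276, 43.5 and 56.9 in those of SF/SCL, with a log2 fold change of 0.60 ± 0.80. The pappalysin inhibitors STC1 and STC2 had log2 fold changes of 0.09 ± 0.46 and 0.41 ± 0.55. For the matrix metalloproteinases the values were 0.34 ± 0.67 (MMP2) and 0.28 ± 0.35 (MMP14). TIMP1, a metalloproteinase inhibitor, was at 0.38 ± 0.34.

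Of the mRNA-binding proteins named for IGF2, IGF2BP2 was measured at 73.9 and 85.2 normalized reads in the LF/LCL libraries, against 45.7, 60.6 and 49.4 in those of SF/SCL. The groups did not overlap, and the log2 fold change was 0.61 ± 0.31 (limma adjusted p = 0.504). IGF2BP1 had 0 reads in every library and IGF2BP3 at most 4.84 normalized reads.

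Receptor adaptors and brakes had 10 of 16 tested genes fitted higher and 6 lower, with a median log2 fold change of 0.06 and 0 at an unadjusted limma p under 0.05 (0 adjusted). The smallest p-values were those of IRS1, the insulin receptor substrate, at -0.25 ± 0.12, SOCS2, a suppressor of growth hormone signalling, at 0.34 ± 0.17, and GAB1, an adaptor, at 0.26 ± 0.16. In the PI3K, AKT and mTOR arm 15 of 31 entries were fitted higher and 16 lower, with a median of -0.04. FOXO1, a transcription factor that AKT keeps out of the nucleus, was measured at 522 and 384 normalized reads in the LF/LCL libraries, against 273, 355 and 212 in those of SF/SCL. Its groups did not overlap, with a log2 fold change of 0.71 ± 0.26, an unadjusted p of 0.0342 and an adjusted p of 0.396 in limma. PIK3CD, a catalytic subunit of PI3K, was at 0.69 ± 0.30 and RHEB, the GTPase that activates mTOR, was at 0.33 ± 0.15.

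In the RAS and MAP kinase arm 6 of 11 genes were fitted higher and 5 lower. MAPK3 (ERK1) was measured at 1586 and 1418 normalized reads in the LF/LCL libraries, against 1306, 1131 and 1220.2 in those of SF/SCL. Its groups did not overlap, with a log2 fold change of 0.30 ± 0.11. Its unadjusted p was 0.0373 and its adjusted p 0.409 in limma. ARAF, a RAF kinase, was at 0.19 ± 0.10, and its groups did not overlap either. Mannose 6-phosphate sorting, the other role of IGF2R, had 4 of 13 genes fitted higher and 9 lower, with a median of -0.02. VPS26A, a subunit of the retromer that returns IGF2R from endosomes, was measured at 2245 and 2128 in the LF/LCL libraries, against 1802, 1707 and 1768 in those of SF/SCL. Its log2 fold change was 0.31 ± 0.09, with an unadjusted p of 0.0147 and an adjusted p of 0.330 in limma, beside 0.18 ± 0.11 for the subunit VPS29 and -0.02 ± 0.10 for the subunit VPS35. GNPTAB, which makes the mannose 6-phosphate tag, was at -0.26 ± 0.17.

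Among imprinted and IGF2-linked growth genes 3 of 11 tested were fitted higher and 8 lower. H19, PEG3, DLK1 and MEG3 of that list had no entry under those symbols and were not counted. PEG10, a retrotransposon-derived gene expressed from the paternal allele, was measured at 142 and 222 normalized reads in the LF/LCL libraries, against 1027, 825 and 1775 in those of SF/SCL. Both LF/LCL libraries were far below the lowest SF/SCL library. PEG10 had a log2 fold change of -2.68 ± 0.36, with an unadjusted p of 0.000358 and an adjusted p of 0.178 in limma. The adjusted p was 2.66e-09 in DESeq2, 5.48e-07 in the edgeR exact test and 0.216 in the edgeR quasi-likelihood test, and over all 14 alternatives it ran up to 0.357. SGCE, an imprinted sarcoglycan gene, was at -0.71 ± 0.42. DIRAS3, an imprinted RAS-like GTPase, was measured at 1.17 and 5.81 in the LF/LCL libraries, against 15.6, 20.2 and 26.8 in those of SF/SCL, with a log2 fold change of -2.48 ± 0.70 (limma adjusted p = 0.318), which was -1.65 without LF/LCL replicate 1. NDN, which encodes necdin, was at -0.50 ± 0.22. IGF2, itself imprinted, had a fitted difference of the opposite sign, at 0.46.

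Of the CCN family and related genes that share a domain with the IGFBPs, 2 of 7 tested were fitted higher and 5 lower. ESM1, an endothelial proteoglycan, was measured at 315 and 2312 normalized reads in the LF/LCL libraries, against 239, 90.9 and 59.0 in those of SF/SCL. LF/LCL replicate 2 stood far above all other libraries. The log2 fold change was 2.96 ± 0.96, with an unadjusted p of 0.0229 and an adjusted p of 0.362 in limma. It was 1.53 without LF/LCL replicate 2 and 4.40 without LF/LCL replicate 1, and adjusted p-values over the alternatives ran from 0.0178 in the edgeR exact test to 0.616. KAZALD1, a secreted protein with an IGFBP domain, was at -1.12 ± 0.50, and CTGF, the connective tissue growth factor, was at 0.37 ± 0.24.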

How the data were processed

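PolyA RNA of the ampulla was sequenced as read pairs. The authors filtered the reads, aligned them with TopHat2 2.0.8 and Bowtie2 2.1.0 to the masked UMD assembly of cattle and counted unique reads per Ensembl gene with HTSeq 0.5.4p2. Whether strand was used in counting is not given in the sources used here. The deposited unit is a normalized signal, the read count divided by a DESeq size factor per library. Division by the step of each library (tolerance 0.0006) gave whole reads for 100% of values.

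Values were tested as log2(value + 1) with limma 3.58.1 (R 4.3.3, trend and robust), for genes with a mean over 5, two-sided, with Benjamini-Hochberg adjustment over 15815 genes and a threshold of 0.05. The alternatives were edgeR 4.0.16 and DESeq2 1.42.0 on the recovered reads, TMM scaling, pseudocounts of 0.5 and 5, other filters, plain eBayes and leaving out each library. The fits were tested on simulated data. Replicates were compared and differed far beyond sampling noise (chi-square per degree of freedom 30.9 to 45.7). Replicate numbers only name libraries.

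The members and gene lists were chosen with earlier results of these data known. All members, IGF1, the carriers and proteases with reads, and up to 3 genes with the smallest limma p of each other list were named, except 1 result that is not reported here. SGCE, MRPL23, RPL37A, TOP2A, TNS4, SYNM and VPS35 were added after their values were seen. The rows IGFR1 and IGF-I were matched to IGF1R and IGF1 after the table was seen. Overlapping and antisense genes cannot be separated without strand. No coordinates or gene lengths were used.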

Additional observations from a re-analysis of the deposited data

How the results depend on the processing

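The count of members with an adjusted p under 0.05 was 0 in limma (2 at an unadjusted p) and under each alternative listed above. The count of members with an unadjusted p under 0.05 was 2, 1 with plain eBayes, and 0 to 3 when each library was left out. The count of other pathway genes with an unadjusted p under 0.05 was 6 and ran from 5 to 10 when each library was left out. The count of members whose groups did not overlap was 1 and ran from 1 to 5 when each library was left out, where a group of 1 or 2 libraries overlaps less easily by construction. Of 140 fold changes recomputed for the members and IGF1 over 14 alternatives, 134 kept their direction and 6 reversed, all of them with a library left out. With a library left out, the log2 fold change ran from -0.11 to 0.15 in IGF1R, from -0.74 to 0.12 in IGFBP3 and from -0.38 to 0.46 in IGFBP7. The cause was not tested. Over all genes, DESeq2 called 457 genes, the edgeR exact test 335 and limma and the edgeR quasi-likelihood test 0 (1819 and 1828 at an unadjusted p). Counting only exact symbols, an alternative chosen after seeing the data, left out IGF1R and changed none of the 3 counts of members. Where LF/LCL was left with 1 library, that library was assumed to vary like SF/SCL. No paired analysis was possible because the labels pair no cows. Every member had at least 382 reads in each library, and no fit at reduced depth was made.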
